A study of Mus musculus with 56 samples.

Results

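A set of 32 genes that encode the contractile, calcium-handling, metabolic and turnover proteins of skeletal muscle fibres was examined in lung, liver and forestomach RNA of adult male MutaMouse, a transgenic mouse strain used to score mutations. The members were taken as a fixed list of symbols, and 39 probes for them were found among 55681 non-control probes by matching the transcript accession of each probe to RefSeq, which named 20018 genes in all. Where a member had more than 1 probe, the probe with the highest mean Cy5 signal in a tissue stood for it. Mice aged 14 weeks were gavaged daily for 28 days with chrysene, a polycyclic aromatic hydrocarbon, at 17.5 (D1), 50 (D2) or 150 mg/kg/day (D3), with olive oil as the vehicle and as the only gavage of D0, and RNA was taken from random pieces of the tissues removed 72 h after the last gavage.

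Each of 56 Agilent arrays carried tissue RNA of 1 mouse in Cy5 against a universal mouse reference RNA in Cy3, with no dye swap. Lung arrays came from 5 mice each at D0, D1 and D3 and from 3 mice at D2. Liver and forestomach arrays came from 5 mice each at D0, D1 and D3 and 4 at D2, so that 19 arrays were available for each of these tissues and 18 for lung. Mice 1 to 5 were D0, mice 6 to 10 D1, mice 16 to 20 D3, and D2 mice carried numbers between them. Values below are the authors' log2 ratios, Cy5 over Cy3, unless a signal is named, and a ratio says how a tissue compared with the reference RNA at that probe, not how abundant the transcript was. A slide held arrays of 1 tissue only, so tissue and slide cannot be told apart. On 50 of the 56 arrays the column on the slide followed the dose, so dose and column can barely be told apart.

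A skeletal muscle fibre shortens when myosin heads pull on thin filaments of actin, and calcium released from the sarcoplasmic reticulum binds troponin to allow it. Creatine kinase, glycogen phosphorylase and the late glycolytic enzymes supply ATP to the filaments, and myoglobin stores oxygen. Lung, liver and forestomach wall are built without skeletal fibres of their own, although heart-type muscle sleeves the pulmonary veins in mice and the striated muscle coat of the oesophagus ends where the stomach begins.

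The labelled tissues carried their defining markers. Sftpc, a surfactant protein of alveolar type 2 cells, lay between 7.66 and 8.80 on the 18 lung arrays and was well above background on 0 of 19 arrays in both liver and forestomach. Alb, the hepatocyte albumin gene, lay between 5.98 and 6.86 in liver, and Krt13, a keratin of stratified epithelium, between 4.24 and 6.71 in forestomach. Alb was also well above background on 14 of 19 forestomach arrays, where it reached 4.00. The share of probes with a Cy5 signal well above background was 49.0 to 56.7% in lung, 34.5 to 46.4% in liver and 18.9 to 51.7% in forestomach, the last differing by slide. The lung arrays of mice 17 and 19 also carried Krt13, Krt5 and Krt14 and are given apart below.

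Detection of the muscle genes was counted in each tissue. In lung, 14 members had a Cy5 signal well above background on all 18 arrays and the other 18 on some of them, against 44.5% of all probes on all arrays and 35.2% on none. In liver, 6 members were detected on all 19 arrays, 9 on some and 17 on none, against 31.7% of all probes on all arrays and 48.0% on none. In forestomach the counts were 4, 16 and 12, against 16.9% of all probes on all arrays and 43.7% on none. Eno3, Smyd1 and Tnni2 were detected most widely, Eno3 and Smyd1 on all 56 arrays. The 3 myosin heavy chain genes Myh1, Myh2 and Myh4 were each detected on 2 of the 18 lung arrays. No member spot was saturated.

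**Figure D1:**
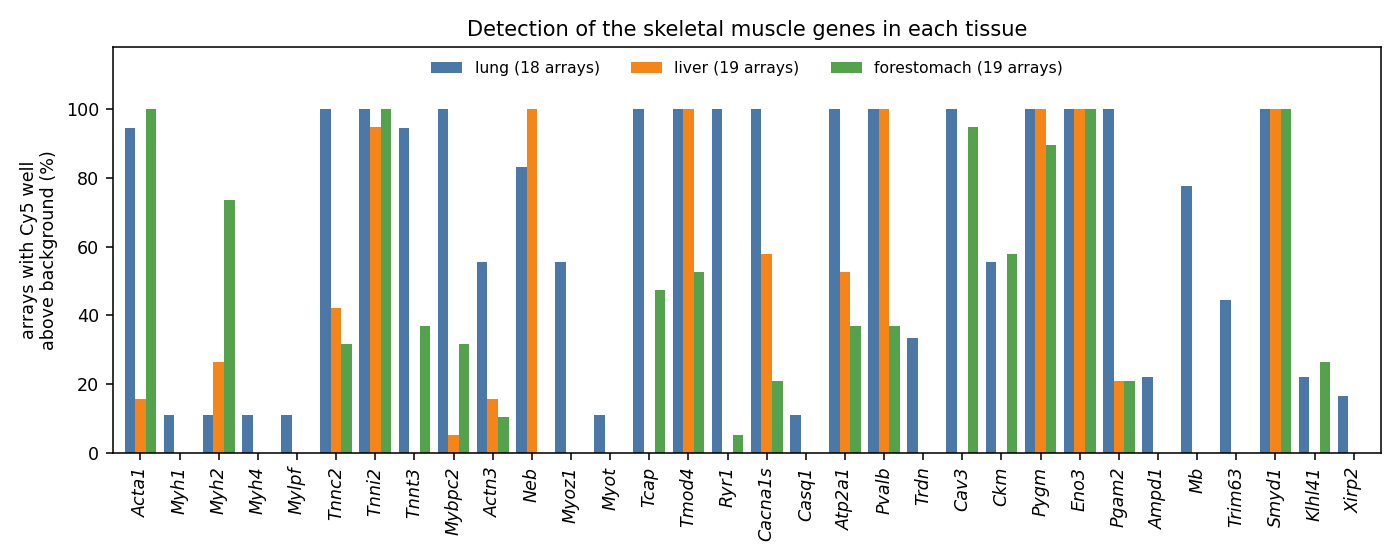
Share of arrays (vertical axis, %) on which the Cy5 signal of each skeletal muscle gene was well above background, in lung (18 arrays), liver (19) and forestomach (19). Blue bars for lung reach every gene, whereas 17 genes have no bar in liver and 12 none in forestomach.

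The lung arrays of mice 17 and 19, both of D3, carried all 32 muscle genes above each of the other 16 lung arrays. Over all probes this held for 5.12%. For 29 members both mice lay more than 1 log2 unit above the highest of the other 16, against 1.23% of all probes, the exceptions being Tcap, Mb and Smyd1. The mean over the members was 4.56 and 4.56 on these arrays, at most 0.27 on the other lung arrays, at most -0.16 in liver and at most 0.20 in forestomach. The members were listed with this pattern already known, so these counts describe it and do not test it. They also rest on 1 probe per gene, chosen by mean Cy5 signal over all 18 lung arrays, mice 17 and 19 included. Among the 7 members with 2 probes, the second probe of Trdn was at 0.25 and 0.11 against at most 0.22, so mouse 19 was not above there.

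Acta1, the skeletal actin gene of the thin filament, was at -2.37, -2.42, -1.90, -2.21 and -2.10 in D0 mice 1 to 5 and at -2.63, -1.68, -2.17, -1.86 and -2.28 in D1 mice 6 to 10. It was at -2.36, 1.57 and -2.26 in D2 mice 12, 13 and 15, and at -1.85, 7.07, -2.42, 7.39 and -2.18 in D3 mice 16 to 20. Mice 17 and 19 thus exceeded the median of the others by 9.27 and 9.58, the largest such distances among the members. The raised value of D2 mouse 13 came from a spot on which both channels were bright, 69909 in Cy5 and 32322 in Cy3, whereas Cy3 lay between 292 and 830 at Acta1 on the other lung arrays, so this single spot was unlike the rest in its reference signal too.

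The fast troponin subunits, through which calcium releases the thin filament, followed the same arrangement. Tnnc2, the calcium-binding subunit, ran from -2.25 through a median of -1.90 to -1.63 on the other 16 arrays and reached 6.04 and 6.31 in mice 17 and 19. Its Cy5 signal was 203481 in mouse 17 against a median of 111, a 1833-fold distance and the largest among the members. Tnni2, the inhibitory subunit, lay between -1.51 and -0.13 (median -1.17) and then at 7.00 and 7.17. Tnnt3, the tropomyosin-binding subunit, lay between -1.62 and -1.10 and then at 5.78 and 6.11, and its second probe read 5.06 and 4.01.

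Fast myosin genes lay near 0 on the other arrays and high on these 2. Myh4, the fastest myosin heavy chain, lay between -0.22 and 0.33 on the other 16 and at 5.95 and 6.32 in mice 17 and 19, and Myh1 between -0.38 and 0.11 and then at 7.13 and 7.19. Mylpf, a fast myosin light chain, reached 2.29 and 2.53 from at most 0.09. Myh2, the heavy chain of the less fast IIa fibres, was the 1 member on which the pair parted, at 6.27 in mouse 17 and 2.49 in mouse 19. The other 31 members differed by less than 0.7 between them. Myh1, Myh2, Myh4, Mylpf, Casq1 and Myot were well above background on none of the other 16 arrays, so for these 6 genes the ratios there hold no level.

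Z-disc and filament-anchoring genes were high with them on both arrays. Actn3, the fast-fibre actinin, lay between -3.41 and -2.60 on the other 16 and at 3.39 and 3.64 in mice 17 and 19. Neb, the nebulin that lines the thin filament, went from at most 0.44 to 6.34 and 5.90, with a second probe at 5.10 and 4.32. Myoz1 reached 5.53 and 5.83, Myot 5.76 and 5.45, Mybpc2, a myosin-binding protein, 5.68 and 6.36, and Tmod4, which caps the thin filament, 2.61 and 2.65. Tcap, the titin cap, was different in kind, since its other 16 values already ran from 1.04 to 4.96, and 5.51 and 5.78 in mice 17 and 19 exceeded the highest of them by 0.54 and 0.81.

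**Figure D2:**
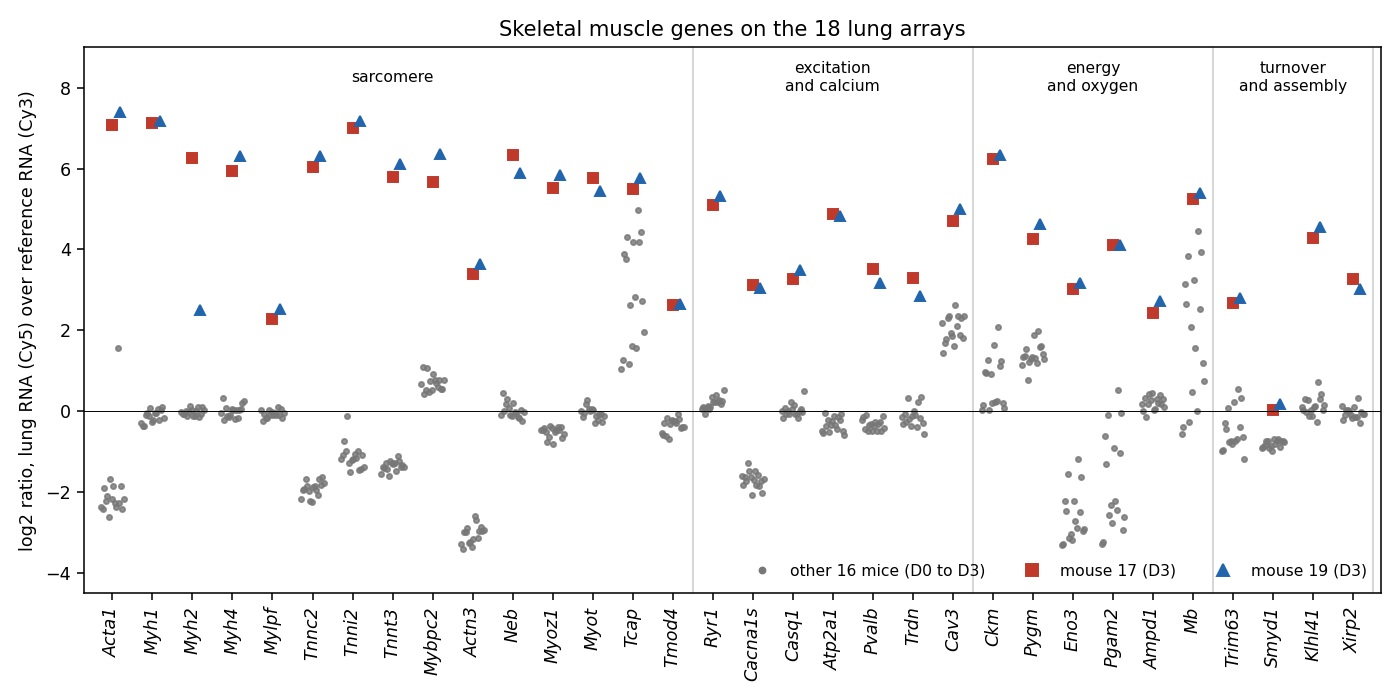
Log2 ratio of lung RNA over reference RNA (vertical axis) for each of 32 skeletal muscle genes, grouped by role, with 1 point per lung array. Mouse 17 (red squares) and mouse 19 (blue triangles), both of D3, lie above the 16 grey points of the other mice at every gene, by the least at Tcap, Mb and Smyd1.

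Excitation and calcium genes were also shared by both mice. Ryr1, the calcium release channel, lay between -0.06 and 0.52 on the other 16 arrays and at 5.09 and 5.32 in mice 17 and 19. Cacna1s, its voltage sensor, lay between -2.09 and -1.28 and then at 3.12 and 3.05. Atp2a1, the pump that returns calcium to the reticulum of fast fibres, ran from -0.60 to -0.06 and reached 4.87 and 4.83. Casq1, which binds calcium inside the reticulum, reached 3.26 and 3.49, Pvalb, a soluble calcium buffer, 3.53 and 3.17, and Trdn, which links release channel and calsequestrin, 3.29 and 2.85. Trdn was the member whose probes disagreed, as its second probe read 0.25 and 0.11 and was well above background on 0 of 18 arrays. Cav3, the muscle caveolin, was above the reference on every lung array, from 1.45 to 2.64, and reached 4.71 and 5.00.

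Among the energy and oxygen genes, the other 16 arrays varied widely at Mb, Pgam2, Eno3 and Ckm, less at Pygm (range 1.23) and least at Ampd1 (0.61). Ckm, the muscle creatine kinase, was at 0.02, 0.16, 0.96, 0.94 and 1.27 in D0 mice 1 to 5 and at 1.24, 6.24, 0.21, 6.34 and 0.08 in D3 mice 16 to 20. Mb, myoglobin, was at -0.57, -0.40, 3.15, 2.65 and 3.84 in D0 and at 3.93, 5.25, 1.19, 5.39 and 0.75 in D3. D0 and D3 ranges therefore overlapped at Ckm and Mb, and Mb covered 5.04 log2 units within the other 16 arrays, the widest such range among the members. Pgam2, the muscle phosphoglycerate mutase, ran from -3.28 to 0.52 and Eno3, the muscle enolase, from -3.32 to -1.18 before reaching 4.11 and 4.11, and 3.02 and 3.16, in mice 17 and 19. Pygm, muscle glycogen phosphorylase, went from at most 1.99 to 4.25 and 4.62, and Ampd1, the muscle AMP deaminase, from at most 0.46 to 2.42 and 2.73.

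Turnover and assembly genes included Smyd1, the member with the smallest distance from the median of the other arrays. Trim63, a ubiquitin ligase of muscle wasting, lay between -1.19 and 0.56 on the other 16 arrays and at 2.69 and 2.81 in mice 17 and 19. Klhl41, needed for myofibril assembly, went from at most 0.73 to 4.28 and 4.56, and Xirp2, an actin-binding repeat protein, from at most 0.32 to 3.27 and 3.02. Smyd1, a histone methyltransferase of striated muscle, lay between -0.99 and -0.69 on the other 16 arrays and at 0.04 and 0.19, with its second probe at 0.95 and 0.92.

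The reference channel moved in part with the sample channel on these 2 arrays. At 9 members, Cy3 exceeded 2 times its median over the lung arrays in both mice, and at Mb it was 13.6-fold and 11.4-fold the median of the other 16, at Tnnc2 11.3-fold and 9.77-fold. At Eno3 it was 0.940-fold and 0.891-fold, while Cy5 was 51.9-fold and 48.1-fold. The log2 ratios of genes with raised Cy3 therefore understate the distance in Cy5, and the part of the reference channel in the values was not tested.

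Because these genes were high together in mice 17 and 19, the 250 bases before the start of 1 gene of each role are shown, those with the largest mean distance from the other arrays among members with an entry. Windows were available for 23 of the 32 members from RefSeq on GRCm38.p6 and are written 5' to 3' on the strand of the gene. Capitals mark the E-box CANNTG bound by MyoD-family factors, TATAAA, the MEF2 motif and the CArG box of serum response factor, each searched on both strands. The Acta1 window was chr8:123894776-123895025 (minus strand), that of Atp2a1 chr7:126463074-126463323 (minus), that of Pgam2 chr11:5803797-5804046 (minus) and that of Klhl41 chr2:69669870-69670119 (plus). The RefSeq promoter table starts Atp2a1 farther in than the gene table does, so 30 bases of its window lie inside the gene as the latter bounds it.
Acta1: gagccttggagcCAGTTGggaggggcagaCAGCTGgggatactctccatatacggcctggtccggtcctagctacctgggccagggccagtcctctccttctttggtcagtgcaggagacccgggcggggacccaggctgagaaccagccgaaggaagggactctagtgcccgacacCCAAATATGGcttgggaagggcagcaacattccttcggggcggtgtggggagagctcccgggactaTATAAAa
Atp2a1: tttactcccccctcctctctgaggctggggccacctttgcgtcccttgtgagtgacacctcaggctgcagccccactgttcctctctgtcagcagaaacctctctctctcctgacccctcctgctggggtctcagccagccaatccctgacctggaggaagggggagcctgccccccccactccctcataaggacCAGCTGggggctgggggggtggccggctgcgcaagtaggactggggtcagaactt
Pgam2: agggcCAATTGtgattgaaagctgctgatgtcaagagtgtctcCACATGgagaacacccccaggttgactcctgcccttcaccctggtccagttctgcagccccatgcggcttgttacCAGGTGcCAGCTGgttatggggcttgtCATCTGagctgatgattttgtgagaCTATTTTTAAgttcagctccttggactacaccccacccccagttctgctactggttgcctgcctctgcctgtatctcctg
Klhl41: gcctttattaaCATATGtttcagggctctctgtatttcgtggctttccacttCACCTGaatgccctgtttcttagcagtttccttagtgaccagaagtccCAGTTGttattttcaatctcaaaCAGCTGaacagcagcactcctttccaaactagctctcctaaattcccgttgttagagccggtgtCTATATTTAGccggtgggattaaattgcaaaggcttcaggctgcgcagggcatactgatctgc

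The Acta1 window held 2 E-boxes, 1 CArG box and 1 TATAAA, that of Atp2a1 held 1 E-box, that of Pgam2 5 E-boxes and 1 MEF2 motif, and that of Klhl41 4 E-boxes and 1 MEF2 motif. An E-box occurred in 19 of the 23 member windows, 82.6%, against 69.3% of the windows of 27025 genes. The MEF2 motif occurred in 6, or 26.1%, against 3.42%, the CArG box in 2, or 8.7%, against 1.62%, and TATAAA in 5, or 21.7%, against 14.3%. These are matches of letters and were read as a description of the windows only.

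Dose was tested for every probe with limma over all arrays of a tissue, and a probe was called when its Benjamini-Hochberg adjusted p did not exceed 0.05 and its fold reached 1.5. In lung at D3 against D0, 0 of 32 members were called, against 0.0485% of all probes. With the limit of 0.05 on the unadjusted p, 29 members were higher and 0 lower, against 5.25% and 7.34% of all probes (12.6% in either direction). An Fs statistic computed here, with whole arrays permuted where the study shuffled residuals, also called 0 members. It gave 31 at that unadjusted limit, against 13% of all probes by that statistic. The median change over the members was 1.92 on the log2 scale, against -0.01 over all probes, with changes from 0.42 for Smyd1 to 3.80 for Acta1. The smallest adjusted p in limma was 0.265, at Cav3. In a bulk sample a change in the number of muscle cells and a change of RNA per cell cannot be told apart.

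The standard errors were wide. Acta1 differed by 3.80 with an SE of 1.60 (adjusted p = 0.340 in limma), Tnnc2 by 3.34 with an SE of 1.29 (adjusted p = 0.309) and Ckm by 2.15 with an SE of 1.00 (adjusted p = 0.383). Without mice 17 and 19 the median change over the members was 0.06, with 3 members within the unadjusted limit, against 7.84% of all probes, and 0 called, and 12 of the 32 differences were then below 0, among them Neb at -0.24, Cacna1s at -0.21, Myot at -0.20, Pgam2 at -0.17, Ckm at -0.16 and Atp2a1 at -0.055. The mean of D3 mice 16, 18 and 20 minus that of D0 ran from -0.47 at Tnni2 to 0.28 at Cav3. Leaving out mouse 17 alone gave a median of 1.18 and leaving out mouse 19 alone 1.19.

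At D1 and D2 the errors in lung were wide for these genes, since mice 17 and 19 entered the spread and the median SE over the members was 0.85 and 0.99, against 0.10 in liver at D1. In lung, 0 of 32 members were within the unadjusted limit at D1, against 5.52% of all probes, and 0 at D2, against 5.47%, and without mice 17 and 19 the counts were 1 and 3, against 6.93 and 6.67% of all probes, with 0 called. The median change over the members was -0.04 at D1, with values from -0.45 to 0.20, and 0.11 at D2, with values from -0.38 to 1.18, the highest being that of Acta1 with the bright spot of mouse 13. Within slides, where lung D0 and D3 arrays could be compared, the median D3 minus D0 difference over the members was 5.20 on the slide with mouse 17, 2.28 on the slide with mice 18 and 19 and -0.02 on the slide with mice 16 and 20. The 3 doses share the D0 arrays.

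Other muscle lists placed the 2 lung arrays more closely. Of 34 further skeletal muscle genes, 32 were above the other 16 arrays in both mice and 27 by more than 1, with Myl1, a fast light chain, at 6.94 and 7.04, and Ttn, titin, at 7.36 and 7.35. Of 12 slow and shared sarcomere genes, 4 were above and 2 by more than 1, Myl3 and Csrp3. Mouse 17 lay above mouse 19 at 9 of the 12 and below at 3, Myl3 (5.73 and 5.96), Csrp3 (5.81 and 5.91) and Tpm3 (0.81 and 0.88). Myl2, the light chain of slow fibres and heart, was at 3.44 in mouse 17 and 0.09 in mouse 19, and Ankrd2 at 1.42 and 0.11, both chosen after their values were seen. By dose, 0 of these 34 and 0 of these 12 genes were called in lung at D3, with 22 higher and 1 lower, and 0 and 0, within the unadjusted limit, where 5.25 and 7.34% of all probes were higher and lower. Without mice 17 and 19 these counts were 0 and 0 of the 34, and 0 higher and 1 lower of the 12, against 7.84% of all probes in either direction.

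Genes of developing muscle were split. Myh8, the perinatal myosin heavy chain, was at 7.53 and 7.94 against at most 2.78 on the other 16 arrays, and Myf6, a myogenic factor kept in adult fibres, at 3.61 and 3.62 against at most 0.20. Myod1 reached 0.47 and 0.57, whereas Myh3, the embryonic heavy chain, lay at -0.19 and 0.09 against at most -0.08. Pax7, the satellite cell factor, was at 0.54 and 0.25 against at most 0.26. Of the 12 genes of this list, 6 were above the others in both mice and 4 by more than 1, namely Myh8, Myf6, Chrna1, an acetylcholine receptor subunit (0.30 and 0.65 against at most -1.97), and Cdh15, a cadherin of muscle precursors (0.14 and 0.20 against at most -1.25).

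Among markers of other cell types, those of keratinocytes went with the muscle genes on these arrays. Of 16 keratinocyte genes, 14 were above the other 16 lung arrays in both mice and 12 by more than 1, and the mean of the list was 3.13 and 3.58 against -0.49 to -0.29 on the other lung arrays. Krt13 was at 5.67 and 6.01 against at most -2.06, and Krt5 and Krt14 at 3.38 and 3.76 and at 2.96 and 3.47. The alveolar type 2 list lay at 5.62 and 5.52 against 5.53 to 5.97 on the others, the smooth muscle list at 1.81 and 1.58 against 0.89 to 1.38, and the adipocyte list at 3.70 and 4.37 against 0.80 to 4.13. The thymocyte list lay at 0.43 and 0.33 against at most 0.10, and the cartilage list at 0.12 and 0.14 against at most -0.11. Yet 0 of 7 thymocyte genes were above the other arrays in both mice, and 2 of 8 cartilage genes, with 0 by more than 1. Of 10 smooth muscle genes, 4 were above and 1 by more than 1, and of 10 adipocyte genes 3 and 0. Of 12 cardiac genes, 2 were above the others and 0 by more than 1. The part of these other cell types in the result was not tested.

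A second, smaller variation ran through the other 16 lung arrays. Mouse 13 of D2 had the highest value of these 16 at 14 of the 32 members and the highest mean over 12 cardiac muscle genes (Nppa, Myl7, Myh6 and others), which ran from -0.06 in mouse 2 to 3.28. The same array was also the highest of the 16 in its mean over the adipocyte list (4.13), the slow and shared sarcomere list (1.94) and the 34 further skeletal muscle genes (0.96), and the part of these other lists in the variation was not tested. This comparison was chosen after the values were seen. Against that cardiac mean, 6 members stayed within 0.05 for both Pearson's r and Spearman's rho in permutation tests adjusted over every probe of the array (100000 permutations, 16 arrays), against 0.145% of all probes, and all 6 correlations were positive.

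Mb gave r = 0.995 and rho = 0.988, Tcap r = 0.982 and rho = 0.968 and Pgam2 r = 0.955 and rho = 0.924. Eno3 gave r = 0.937 and rho = 0.938, Ckm r = 0.920 and rho = 0.915, and Trim63 r = 0.900 and rho = 0.894. The permutation p of each r was 1e-05, the smallest that the permutations can give, with an adjusted p of 0.00679, and adjusted p of rho was between 0.00994 and 0.0166. Without the 2 arrays farthest from the median cardiac mean the 6 values of r were at least 0.849, and within slides at least 0.878. All 6 genes are used by heart muscle as well as by skeletal fibres, but whether such use sets them apart from the other members was not tested. By rho, next among the other members came Atp2a1 with r = 0.837 and rho = 0.818 (adjusted permutation p = 0.0783 and 0.0960). Acta1 followed with r = 0.580 and rho = 0.776 (0.0634 and 0.206), then Klhl41 with r = 0.771 and rho = 0.756 (0.0837 and 0.293). Trdn came after them with r = 0.724 and rho = 0.718 (0.267 and 0.396). Without the 2 arrays farthest from the median, r of Atp2a1, Acta1, Klhl41 and Trdn was 0.790, 0.641, 0.643 and 0.578. Smyd1 was below Trdn by rho but above Acta1 by r, with r = 0.606 and rho = 0.691 (adjusted permutation p = 0.565 and 0.469). At the lower end, Myh4, well above background on none of these 16 arrays, gave r = -0.38 and rho = -0.35 (adjusted permutation p of r = 0.801). Neb gave r = 0.02 and rho = 0.03 (0.993). With the 2 arrays farthest from the median left out, r of Myh4 and Neb was -0.36 and 0.16. Cav3, well above background on all 16 arrays, gave r = 0.09 and rho = 0.06 (adjusted permutation p of r = 0.974). Xirp2, well above background on 1 of them, gave r = 0.41 and rho = 0.40 (0.773).

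**Figure D3:**
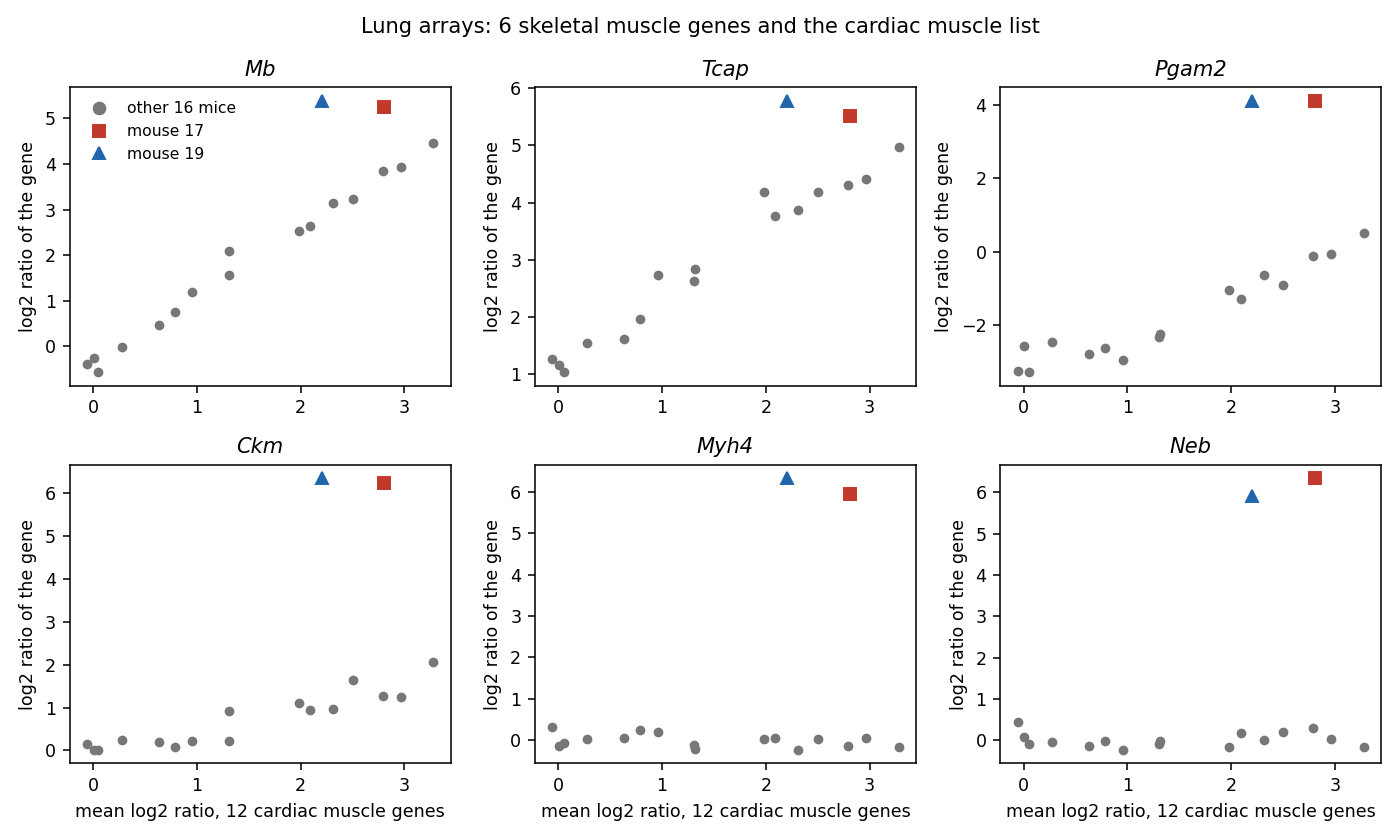
Log2 ratio of 6 skeletal muscle genes (vertical axes) against the mean log2 ratio of 12 cardiac muscle genes (horizontal axis) on the 18 lung arrays. Along the 16 grey points, Mb, Tcap, Pgam2 and Ckm climb with the cardiac mean and Myh4 and Neb stay near 0, and the red square (mouse 17) and blue triangle (mouse 19) lie above the grey points in every panel.

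The same mice were not set apart in the other tissues. Among the 5 D3 arrays, mouse 17 was highest at 1 member in liver and 4 in forestomach, and mouse 19 at 10 and 2. In liver, 0 of 32 members were called at any dose by limma or by the Fs statistic, and 0% of all probes by limma. Within the unadjusted limit of limma the liver counts were 0 at D1, 0 at D2 and 1 at D3, against 4.04, 4.38 and 4.83% of all probes. That 1 member was Myot, at -0.20 (SE 0.09, adjusted p = 1.00 in limma), which was above background on 0 of 19 liver arrays.

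In forestomach, 0 members were called at any dose by limma or Fs, against 0, 0 and 0.00359% of all probes in limma at D1, D2 and D3. Unadjusted, the counts were 0, 2 and 3, against 4.14, 5.85 and 6.88%. Tcap differed by 0.54 at D3 (SE 0.18, adjusted p = 0.437 in limma) and Tmod4 by 0.43 (SE 0.17, adjusted p = 0.588), both well above background on 2 of 5 D0 and 3 of 5 D3 arrays, whereas Smyd1 differed by -0.36 at D3 and by -0.37 at D2. Tcap was at 0.05, 0.00, -0.28, -0.17 and 0.27 in D0 and at 0.91, 0.26, 0.19, 0.56 and 0.67 in D3, which overlap, and Smyd1 at D3 came to 0.0068 when the scanner signals were centred on the median of each array.

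The D3 change itself was compared between tissues. Of 32 members, 0 differed by both limits between lung and liver, between lung and forestomach or between forestomach and liver, against 0, 0.293 and 0.0233% of all probes. Within the unadjusted limit the counts were 27, 23 and 0, against 5.09, 9.6 and 7.31% of probes. The smallest adjusted p between lung and forestomach was 0.0536 in limma, and the members' median difference was 1.88 for lung against liver and 1.73 for lung against forestomach. Without mice 17 and 19, 0 and 1 members were within the unadjusted limit, against 3.2 and 6.98% of all probes, and the median differences were 0.06 and 0.01.

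In forestomach, some members lay above the reference at every dose, led by Tnni2 and Acta1. Tnni2 was between 1.41 and 3.86 and Acta1 between 0.81 and 2.74, and both were well above background on 19 of 19 arrays. The other fast troponin genes did not go with Tnni2. Tnnc2 lay between -2.14 and -0.20 and Tnnt3 between -1.30 and 0.27, well above background on 6 and 7 of 19 arrays. At D0, Tnni2 was at 3.27, 2.07, 1.63, 3.85 and 3.35 in mice 1 to 5, and Acta1 at 2.20, 1.27, 1.22, 2.36 and 2.44. Eno3 and Smyd1 were also well above background on 19 of 19 arrays, Cav3 on 18, Pygm on 17, Myh2 on 14, where it reached 4.02, and Ckm on 11, where it reached 3.51. The 12 members well above background on 0 of 19 arrays were Ampd1, Casq1, Mb, Myh1, Myh4, Mylpf, Myot, Myoz1, Neb, Trdn, Trim63 and Xirp2. The smooth muscle list averaged 2.91 to 4.96 in forestomach, and its part in the Acta1 and Tnni2 values was not tested.

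**Figure D4:**
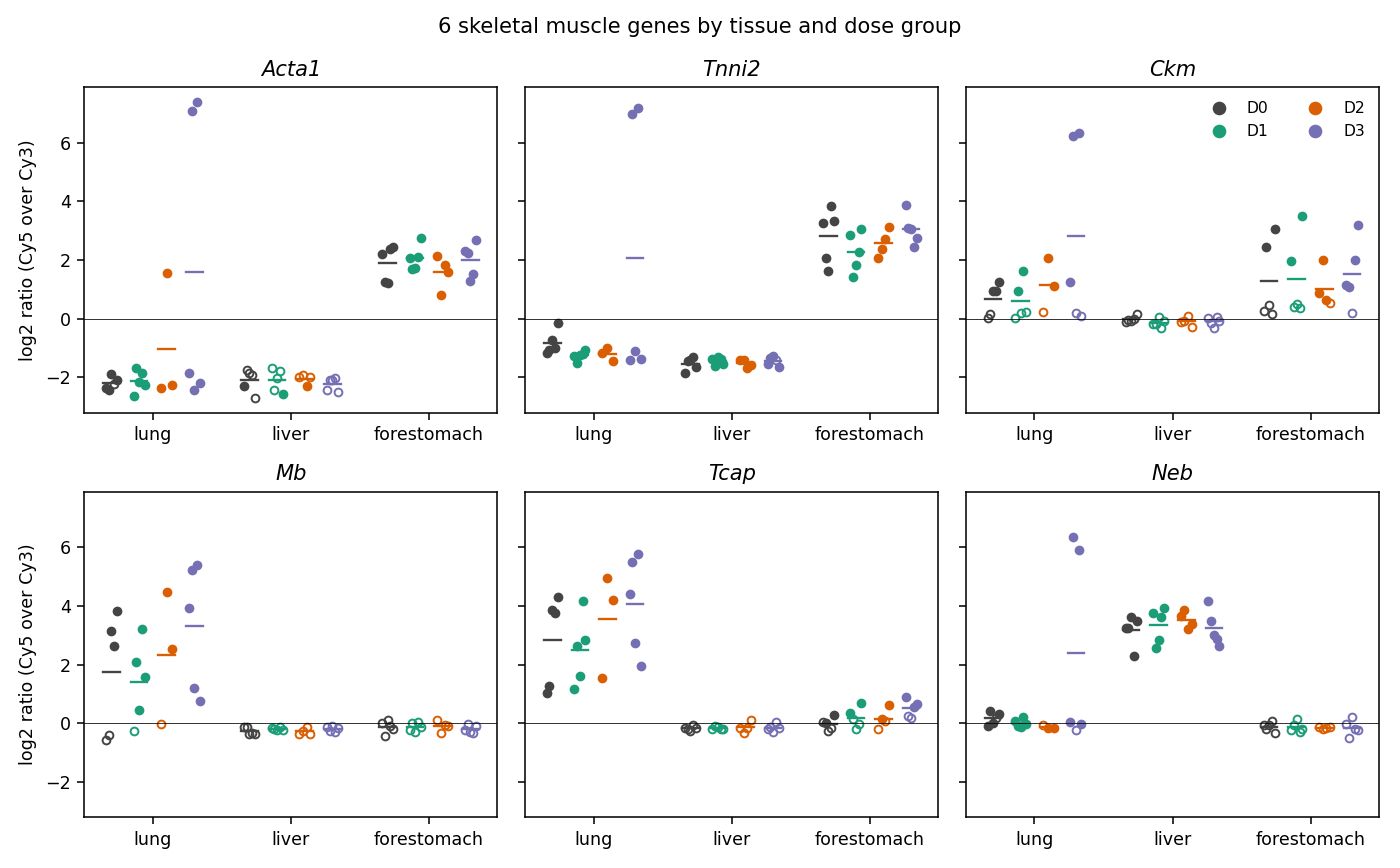
Log2 ratio (vertical axes) of Acta1, Tnni2, Ckm, Mb, Tcap and Neb on each array, by tissue and dose group, with horizontal lines at group means and open circles where Cy5 was not well above background. Purple D3 points of lung split into 2 arrays near 5 to 7 and 3 near the other doses except at Mb and Tcap, where the doses overlap, while Acta1 and Tnni2 stand high in forestomach and Neb in liver.

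Level differences between tissues were tested at D0, where 5 mice gave all 3 tissues. Against lung, forestomach had 8 members higher and 2 lower by both limits, against 10.6 and 11.1% of all probes (21.7% in either direction), but with scanner signals centred on each array's median the split was 2 higher and 5 lower, and with the spread taken from all arrays it was 4 and 2, without Myh2, Tnnt3, Tnnc2 and Actn3. Acta1 averaged 1.90 ± 0.61 (SD, n = 5) in forestomach and -2.20 ± 0.21 in lung, a difference of 4.10 (SE 0.25, limma adjusted p = 3.61e-09). Tnni2 averaged 2.83 ± 0.94 and -0.82 ± 0.42, a difference of 3.66 (SE 0.35, adjusted p = 5.31e-07). Eno3 differed by 2.18 and Smyd1 by 1.30, and Tnnc2, Tnnt3 and Actn3 by 1.01, 0.95 and 1.56, but under median centring these 5 turned to -0.12, -0.41, -0.40, -0.063 and -0.12. Actn3 was well above background on 0 of 5 forestomach and 1 of 5 lung arrays, so its difference is not one of measured levels. Tnnc2 and Tnnt3 were well above background on 2 and 1 of 5 forestomach arrays. Myh2, well above background on 2 of 5 forestomach and 0 of 5 lung arrays, was at least 1.46-fold higher in forestomach. Such bounds are folds of Cy5 signal normalized between arrays, with the dim tissue set no lower than the lowest signal well above background, and without a dye swap they are open to dye bias.

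The 2 members lower in forestomach than in lung were Tcap and Mb, which heart muscle also uses. Tcap, well above background on 2 of 5 forestomach and 5 of 5 lung arrays, averaged -0.03 ± 0.21 in forestomach and 2.85 ± 1.56 in lung, a difference of -2.88 (SE 0.52, adjusted p = 0.000357). Mb was well above background on 0 of 5 forestomach and 3 of 5 lung arrays, and its ratios averaged -0.12 ± 0.21 and 1.73 ± 2.07 (adjusted p = 0.0468 in limma). All 5 lung arrays exceeded all 5 forestomach arrays at 2 members, and the reverse held at 4, against 12.5 and 11% of all probes.

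Lung against liver gave 5 members higher and 5 lower, against 14.4 and 12.5% of all probes (26.9% in either direction), 8 higher and 3 lower under median centring, and 3 and 3 with the spread from all arrays, without Mybpc2, Pygm, Tnnc2 and Actn3. Tcap averaged 2.85 ± 1.56 in lung and -0.17 ± 0.07 in liver (adjusted p = 0.000151 in limma) and Mb 1.73 ± 2.07 and -0.26 ± 0.13 (adjusted p = 0.0282), and Cav3 was at least 3.34-fold and Mybpc2 at least 1.63-fold higher in lung, with all 5 liver arrays not well above background for each of the 4 genes. Pygm was higher by 0.62 (SE 0.23, adjusted p = 0.0442), a call lost with the mouse as a block. Neb averaged 0.17 ± 0.22 in lung and 3.18 ± 0.51 in liver, Pvalb -0.28 ± 0.18 and 1.66 ± 0.14, and Smyd1 -0.82 ± 0.08 and 0.83 ± 0.09. The second probes of Pvalb and Smyd1 were well above background on 0 of 19 liver arrays, with medians there of -0.11 and 0.00. Lung minus liver was -0.98 at Tnnc2, which came to 0.034 under median centring, and Actn3 was called lower in lung but was well above background on 1 of 5 arrays of each tissue, so that call is not one of measured levels. Every D0 lung array exceeded every D0 liver array at 5 members, and lay below at 6, against 19.1 and 18.5% of all probes.

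Forestomach against liver gave 4 members higher and 2 lower, against 11 and 9.88% of all probes (20.9% in either direction), and 2 and 2 under median centring. Tnni2 differed by 4.36 (SE 0.35, adjusted p = 5.00e-08), Eno3 by 2.91 and Acta1 by 4.00, with Acta1 well above background on 5 of 5 forestomach and 1 of 5 liver arrays, and Cav3 was at least 3.13-fold higher. Neb was at least 6.63-fold higher in liver and forestomach minus liver was -1.70 at Pvalb (SE 0.11, adjusted p = 4.01e-09), which was well above background on 2 of 5 forestomach and 5 of 5 liver arrays. The second Pvalb probe did not repeat this, with a median of -0.11 over all doses and 0 of 19 arrays well above background in each of these tissues. Every D0 forestomach array lay above every D0 liver array at 5 members and below at 2, against 11.2 and 11.4% of all probes. Of the 34 further skeletal muscle genes, 5 were higher and 4 lower in forestomach than in lung, 4 and 2 than in liver, and 8 were higher and 3 lower in lung than in liver, with Tpm2, a tropomyosin shared with smooth muscle, at the largest difference, 6.60 between forestomach and liver.

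In liver, the 6 members well above background on all 19 arrays were Neb, Pvalb, Smyd1, Pygm, Tmod4 and Eno3. Neb ran from 2.31 to 4.18, Pvalb from 1.35 to 1.96, Smyd1 from 0.66 to 1.02 and Pygm from 0.26 to 0.96, all above the reference, whereas Tmod4 ran from -0.50 to 0.15 and Eno3 from -3.39 to -3.18. Tnni2, well above background on 18 of 19 arrays, ran from -1.86 to -1.27. Second probes did not all repeat this: the second Neb probe ran from 0.25 to 1.22 and was well above background on 14 of 19 arrays, whereas the second probes of Pvalb and Smyd1 were well above background on 0 of 19. A single liver array stood out at Mybpc2, that of D2 mouse 11, at 3.81 against -0.42 to 0.15 on the other 18. The Cy5 signal there was 479.

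Forestomach values also followed the slide. Ckm lay between 1.97 and 3.51 on the 7 arrays of slide 1 and between 0.16 and 0.64 on the 7 of slide 3, and Pygm and Cav3 were likewise higher on every array of slide 1, against 4.33% of all probes. Tnnc2, Actn3, Cacna1s, Myoz1, Trim63 and Pgam2 were lower on every array of slide 1 than on slide 3, against 6.67% of all probes. Every slide held all 4 doses in forestomach. Slides 2 and 3 separated 0 members in either direction, against 0.46 and 0.393% of probes.

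The slides differed in signal as well. On slide 1, 40.4 to 51.7% of all probes were well above background in Cy5, against 18.9 to 30.1% on slide 3, and the keratinocyte list averaged 4.69 to 5.68 against 3.50 to 4.02. Ckm was well above background on 7 of 7 arrays of slide 1 and 1 of 7 of slide 3. At Tnnc2, Actn3, Cacna1s, Myoz1, Trim63 and Pgam2, 0 arrays of slides 2 and 3 had Cy5 well above background, and at Myoz1 and Trim63 0 of slide 1, so none of these 6 differences is one of measured levels. In liver, ratios on slide 1 were lower than on slide 3 at Tnnc2, Acta1 and Pgam2, against 2.46% of all probes, but Cy5 was well above background on 1, 0 and 0 of the 7 slide 3 arrays at these genes, against 4, 3 and 3 of 6 on slide 1, so these are not differences of measured levels. The part of the slide in the tissue differences was not tested.

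**Figure D5:**
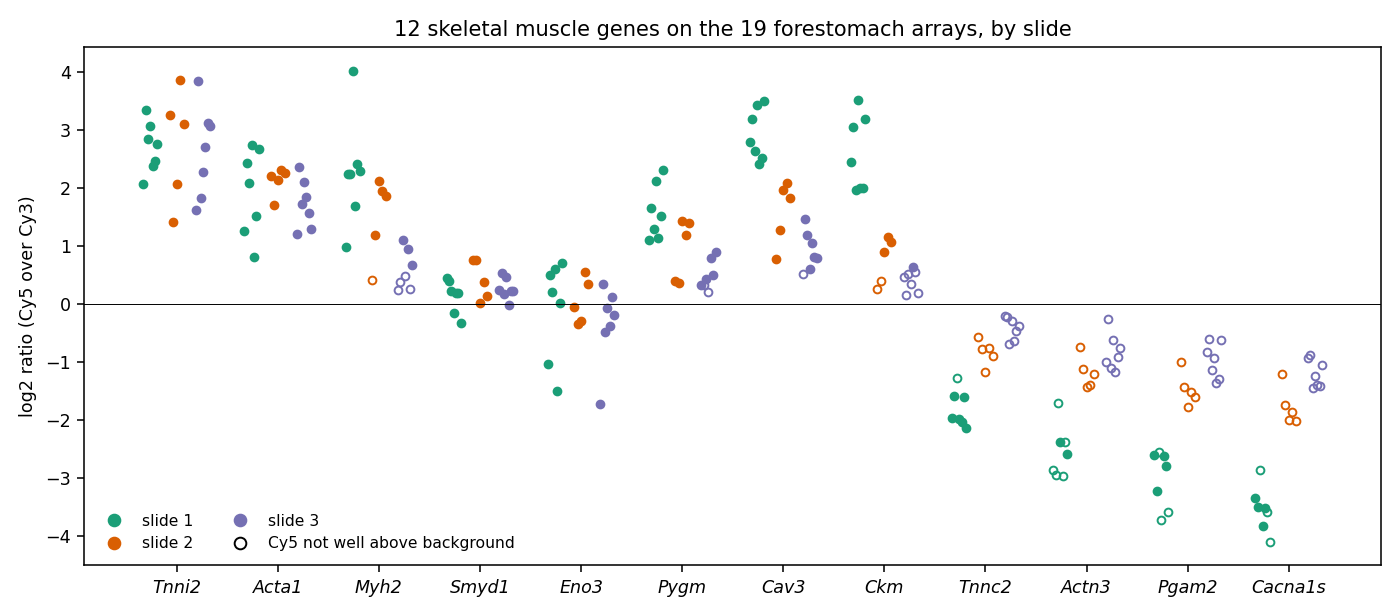
Log2 ratio (vertical axis) of 12 skeletal muscle genes on the 19 forestomach arrays, coloured by slide, with open circles where Cy5 was not well above background. Green slide 1 points lie above purple slide 3 points at Pygm, Cav3 and Ckm and below them at Tnnc2, Actn3, Pgam2 and Cacna1s, while the slides overlap at Tnni2 and Acta1.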

How the data were processed

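RNA of lung, liver and forestomach was hybridised by the authors to Agilent arrays in both colours, scanned and read with Feature Extraction 10.7.3.1. The deposited value table holds the authors' log2 ratios (Cy5 sample over Cy3 reference), which tracked loess-normalized ratios computed here from the scanner signals with r between 0.977 and 0.998. Against log2 ratios of the scanner signals without normalization, r ran from 0.285 to 0.986 over the arrays. It was at least 0.908 in lung, 0.696 to 0.902 in liver and at most 0.496 on the forestomach arrays of slides 2 and 3. The deposited scanner files hold median spot intensity in each channel and the scanner's flags (another kind of value, set per the file headers, for spots well above background). Control spots were left out and no signal filter was used.

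Accessions of 47.4% of the probes matched RefSeq. Values were tested with limma 3.58.1 in R 4.3.3 with a mean for each group, and tissues at D0 without a block on the mouse. Other normalizations, signal filters, array weights, slide or mouse blocks, the Fs statistic (100 permutations) and left-out mice were tried, and the procedure was tested on simulated data. All members are accounted for by role, with other lists named at their extremes. Members and lists were chosen with earlier results of these data known. Same-numbered mice are 1 animal in all tissues per the labels, and correlations of their deviations ran from -0.13 to 0.19. The number of arrays limits the precision.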

Additional observations from a re-analysis of the deposited data

Results flagged for a closer look

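Of 352 groups of 4 or 5 arrays, 16 held 1 array set apart from the rest by Dixon's test, or 4.55%, where chance sets apart about 1 in 20. Of these 16 values, 9 came from a Cy5 signal not well above background and hold no level, those of Myoz1 and Myot in lung, Myh4, Ampd1 and the D0 value of Mybpc2 in liver, and all 4 in forestomach. The largest was Mybpc2 in liver D2, at 3.81 in mouse 11. In lung, the values set apart were Tnnt3 at -1.62 and Tmod4 at -0.69 in D1 mouse 6, Actn3 at -2.60 and Myot at -0.31 in D1 mouse 10, Pygm at 1.88 and Trim63 at 0.23 in D1 mouse 9, and Myoz1 at -0.77 in D0 mouse 5. In liver they were Mybpc2 at -0.42 in D0 mouse 1, Atp2a1 at 0.28 in D1 mouse 7, Myh4 at 0.28 in D3 mouse 19 and Ampd1 at 0.15 in D3 mouse 20. In forestomach they were Tnnt3 at -1.30 in D0 mouse 5, Atp2a1 at -0.63 in D2 mouse 13, Xirp2 at -0.26 in D2 mouse 12 and Tmod4 at -0.65 in D3 mouse 16. Mice 17 and 19 of lung D3 were not set apart by this test, which compares 1 array with the others of its group and finds no gap where 2 lie together.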

How the results depend on the processing

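Calls of 0 members for every dose in every tissue held under all alternatives run. With the spread taken from all arrays, 6 members were called for forestomach against lung at D0 and 6 for lung against liver, in place of 10 and 10. The D3 difference between lung and forestomach gave 1 member with the filter on signal in 3 arrays, and 0 to 1 with mice left out in turn. Without mice 17 and 19, 12 of 32 lung D3 changes were below 0, those of Ckm, Atp2a1 and Pgam2 being -0.16, -0.055 and -0.17. Median centring turned forestomach D3 Smyd1 to 0.0068, the forestomach against lung differences of Tnnt3, Tnnc2, Smyd1, Actn3 and Eno3 to -0.063, -0.40, -0.41, -0.12 and -0.12, and lung against liver Tnnc2 to 0.034. The cause was not tested.

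With the mouse as a replicate block, since tissues are paired by animal, 10, 7 and 9 members were called at D0 for forestomach against lung, forestomach against liver and lung against liver, and 0 for each D3 difference. Pygm lost its call in lung against liver (adjusted p = 0.0601), and the block removed no other of these calls. Leaving out each mouse gave 7 to 10, 6 to 7 and 8 to 9 members. The lung D3 median change was 1.10 with array weights. Low signal in forestomach limits what could be seen there.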

Other observations

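Outside the lists, the genes whose log2 ratios were most like the mean of the 32 members over the 18 lung arrays were Hspb6 (r = 0.995), a small heat shock protein of muscle, then Cavin4, Egf, Rpl3l, the muscle form of a ribosomal protein, Synpo, Crhr2, Hspb3, Klhl31, Rptn and Mt4. These values rest on mice 17 and 19 and are a description. Rpl3l was at 4.76 and 4.75 in these mice against at most 0.64 in the other 16, and Klhl31 at 4.27 and 4.41 against at most 0.64. Rptn and Mt4, genes of stratified epithelium, were at 5.26 and 5.79 and at 6.25 and 6.82, against at most 0.68 and 0.14. Over the 19 forestomach arrays the most similar genes were Cavin3 (r = 0.940), Tes, Letmd1, Zcchc24, Ankrd13d, Fam126a, Matn2, Speg, Ptgs1 and Hoxa7 (r = 0.879), none of which is in the lung series of 10.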
